A study of Mus musculus with 8 samples.

Results

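The response to IL1B and TNFA was examined in mouse liver endothelial cells labelled dKO, by comparing the 2 dKO libraries treated with both cytokines with the 2 dKO control libraries. These 4 libraries, of 8 in the series, were chosen by their labels and table columns, and all genes were tested. The endothelial cells were isolated from liver and kept in endothelial medium, and the labels name the genotype only as dKO or WT. The series' design text speaks of a deletion of Erg and/or Fli1 induced with the tamoxifen metabolite 4-OHT for 48 hours, followed by 7 further days of culture and 16 hours with IL1B and TNFA for the treated groups. The 4 groups, with 2 libraries each, were thus WT control, WT with cytokines, dKO control and dKO with cytokines. The protocol text names 4-OHT for every sample, WT included. Whether it was given to the cells or to the animals differs between the design and protocol texts. No Cre line or promoter is named. Cells were sorted as live, CD45-, CD31+ and VE-cadherin+, and polyadenylated RNA was sequenced. The labels do not state whether replicates are different animals or cultures, so a p-value here measures only the spread between these libraries.

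IL1B and TNFA are cytokines that bind their own receptors on endothelial cells and act through adaptor proteins and the IKK kinases. These kinases mark IkB proteins for destruction, and the freed NF-kB dimers enter the nucleus and switch on genes for chemokines, adhesion molecules and their own inhibitors. In many cells the same stimulus also leads to a slower interferon arm, in which secreted interferon beta acts through JAK kinases and STAT and IRF factors on antiviral genes. ERG and FLI1 are related ETS transcription factors that maintain the endothelial state, and ERG is known to restrain inflammatory genes in resting endothelium.

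Library totals ran from 23009062 to 26944030 counts, and 15698 of 52636 genes had enough counts to be tested. Values are CPM, counts scaled to a common library size with TMM-scaled library sizes. Erg was at 40.1 and 91.3 CPM in the controls and 34.7 and 90.2 CPM with cytokines, and Fli1 at 21.9 and 62.5 CPM in the controls and 12.4 and 35.2 CPM with cytokines (edgeR adjusted p = 0.487, and 0.000397 with the replicate block). Both genes were higher in replicate 2 than in replicate 1 of dKO and lower in all 4 dKO libraries than in any WT library (at least 186 CPM for Erg and 91.5 CPM for Fli1). The sort markers Pecam1 (CD31) and Cdh5 (VE-cadherin) were present in all 4 dKO libraries, at 276 to 635 and 163 to 599.6 CPM, and Ptprc (CD45) had 1 count in the 4 libraries together. Summed over 8 endothelial markers, dKO replicates 1 and 2 held 1431 and 3023 CPM without and 1287 and 2231 CPM with cytokines, against 4972 to 8543 CPM in WT. Summed over 18 markers of stellate cells, pericytes and fibroblasts, mostly Dcn, they held 15874 and 13073 CPM without and 17580.1 and 14738 CPM with cytokines, against 9220.0 to 10837 CPM in WT, and no marker was at 0. A sum led by Dcn hides members at lower levels. Pdgfra, a member, was at 932 and 614 CPM in the dKO controls and 1173 and 616 CPM with cytokines, against 2.07 to 32.2 CPM in WT. Lrat, another member, had at most 1 count in any library. The 12 markers of cholangiocytes and mesothelium, 2 of them at 0 in dKO, summed to 63.2 and 123 CPM without and 157 and 269 CPM with cytokines, so that the sum was higher with treatment in both replicates, against 6.28 to 18.6 CPM in WT. Most of that sum was Spp1, at 25.6 and 73 CPM in the controls and 133 and 244 CPM with cytokines. The 14 hepatocyte markers, 6 of them at 0 in dKO, summed to 309 and 187 CPM without and 201 and 166 CPM with cytokines, against 3.13 to 5.52 CPM in WT. Nearly all of that dKO sum came from the 3 markers with enough counts to be tested. Alb, the albumin gene, had 2 counts in dKO cytokines replicate 1 and 0 in each other dKO library. The 16 leukocyte markers, mostly Cd14 and 7 of them at 0 in dKO, summed to 202 and 203 CPM without and 180 and 138 CPM with cytokines, against 252 to 552 CPM in WT. The part of these markers in the responses was not tested. In RNA from many cells, fewer cells of a type and less RNA per cell cannot be told apart.

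The dKO libraries of the same number deviated together. Across genes, the deviations from the group means correlated at 0.689 between control and treated dKO libraries of 1 number. Xist, a transcript of female cells, was at 0.849 and 1.32 CPM in the dKO libraries of replicate 1 and at 223.5 and 170.6 CPM in those of replicate 2. Ddx3y, a gene of the Y chromosome, had 139.96 and 157 CPM in replicate 1 of dKO. Replicate 2 of dKO held this transcript as well as Xist, with Ddx3y levels of 90.5 and 117 CPM. In WT, replicate 1 had Ddx3y at 118 and 110.2 CPM with Xist under 1 CPM, and replicate 2 had Xist at 632 and 454 CPM with Ddx3y under 0.05 CPM. In WT the replicates thus came from cells of different sex, so sex and replicate number cannot be told apart there. In dKO, replicate 2 held transcripts of both sexes and replicate 1 mainly that of male cells. Replicates of a group were therefore not repeat libraries of the same RNA. The main test did not pair the libraries. The replicate block reads each replicate number within a genotype as a pair, and its result is given beside a gene whose dKO call it changes.

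In dKO, 549 genes were higher and 323 lower with cytokines at an edgeR adjusted p under 0.05, which is 3.5% and 2.06%, together 5.55%, of the 15698 genes tested. The median log2 fold change of all tested genes was -0.01. All 872 genes moved in the same direction in both replicates, which was so for 75.2% of all tested genes. The 872 were called from these same libraries, so their agreement follows in part from the selection. By more than 10-fold, 48 genes rose and 12 fell. With the replicate block the test called 3769 genes, 1992 higher (12.7% of those tested) and 1777 lower (11.3%), together 24%, among them 871 of the 872. The counts of each gene list below stand beside these shares of all tested genes. The count of 872 fell in each of the 8 fits that left out 1 library. It fell most without dKO control replicate 1 or dKO cytokines replicate 1. All 8 libraries, WT included, set the spread. What made the count fall was not tested. With the 4 dKO libraries alone, 1 gene passed.

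**Figure D1:**
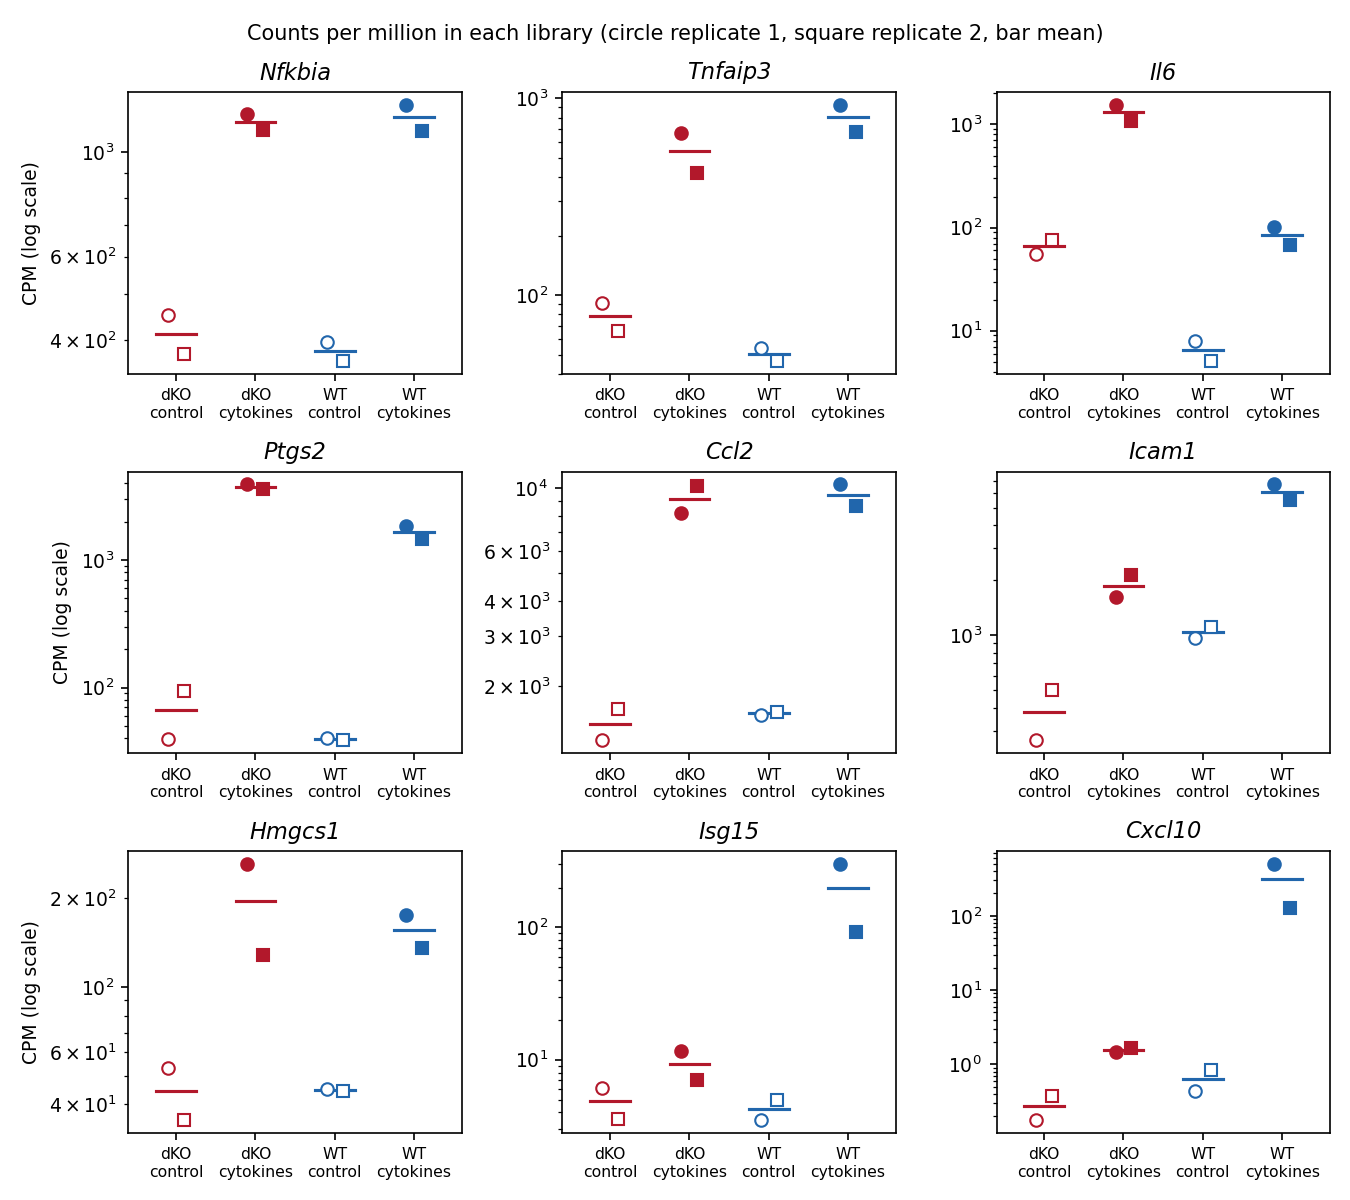
CPM of 9 genes in each library on a log axis, with dKO in red and WT in blue, controls as open and cytokines as filled symbols, a circle for replicate 1, a square for replicate 2 and a bar for the mean. Nfkbia, Ptgs2, Il6 and Ccl2 separate treated from control libraries in dKO as in WT, while Isg15 and Cxcl10 reach far higher levels in WT with cytokines than in any dKO library.

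Of 20 receptors and adaptors for IL1B and TNFA tested in dKO, 2 were higher and 1 lower, which is 15% beside 5.55% of all tested genes, with a median log2 fold change of -0.02, and with the replicate block 4 were higher and 4 lower. Whichever library was left out, 1 was higher, and the lower count was 1 without dKO control replicate 2 or dKO cytokines replicate 2 and 0 without any other library. Il1r1, the signalling receptor for IL-1, was at 442 and 363 CPM in the controls and 426 and 381 CPM with cytokines, and the values of treated and control libraries overlapped. Irak3, an inhibitor of IL-1 receptor signalling, was at 36.9 and 37 CPM in the controls and 81.6 and 79 CPM with cytokines and rose (log2 fold change 1.12 ± 0.08 (SE), edgeR adjusted p = 0.00445). Map3k8, the kinase TPL2, was at 76.2 and 70.1 CPM in the controls and 36.6 and 46 CPM with cytokines and fell (log2 fold change -0.83 ± 0.12 (SE), edgeR adjusted p = 0.0212). Irak3 passed in each of the 8 fits that left out 1 library (highest edgeR adjusted p = 0.0216). Map3k8 passed the threshold only without dKO control replicate 2 or dKO cytokines replicate 2 (edgeR adjusted p up to 0.0941).

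Most genes for NF-kB subunits and IkB proteins rose. Of 15 tested members 9 were higher and 0 lower (11 and 0 with the replicate block), and the median log2 fold change was 0.85, beside -0.01 over all tested genes. Nfkbia encodes IkB alpha, the inhibitor that is itself a classic NF-kB target, and was at 451 and 373 CPM in the controls and 1199.6 and 1114 CPM with cytokines (log2 fold change 1.49 ± 0.14 (SE), edgeR adjusted p = 0.00664). Nfkbie, a related inhibitor, was at 29.2 and 40 CPM in the controls and 133 and 149 CPM with cytokines and rose by a log2 fold change of 2.02 (edgeR adjusted p = 0.00516). For each, both treated libraries lay above both controls. The subunit genes Nfkb2, Relb and Rel rose as well, by log2 fold changes of 1.71, 1.13 and 2.08 (edgeR adjusted p = 0.00578, 0.00583 and 0.0187). Nfkb1 and Rela, picked after their values were seen, had smaller log2 fold changes of 0.85 and 0.65 (edgeR adjusted p = 0.0229 and 0.0479). The count of 9 fell in each of the 8 fits that left out 1 library. Nfkbia, Nfkbie, Nfkb2 and Relb passed in each of the 8 fits that left out 1 library (highest edgeR adjusted p = 0.0386). Rel missed the threshold without dKO control replicate 1 or 2 or dKO cytokines replicate 1 (edgeR adjusted p up to 0.102). Nfkb1 passed the threshold only without dKO control replicate 2 (edgeR adjusted p up to 0.0882). Rela missed the threshold whichever library was left out (edgeR adjusted p up to 0.198).

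Feedback regulators had 11 of 18 members higher and 0 lower (13 and 1 with the replicate block) and a median log2 fold change of 1.18. Tnfaip3 encodes A20, a ubiquitin-editing enzyme that switches off NF-kB signalling, and was at 91.6 and 65.5 CPM in the controls and 665 and 416 CPM with cytokines (log2 fold change 2.78 ± 0.30 (SE), edgeR adjusted p = 0.0105). Birc3, an inhibitor of apoptosis induced by TNF, was at 71.8 and 98.7 CPM in the controls and 256 and 244 CPM with cytokines (log2 fold change 1.55 ± 0.16 (SE), edgeR adjusted p = 0.0074). Ripk2, a kinase of the NOD pathway, was at 43.7 and 38.7 CPM in the controls and 159.7 and 174 CPM with cytokines (log2 fold change 2.02 ± 0.13 (SE), edgeR adjusted p = 0.00407). In none of these genes did treated and control libraries overlap, which is a description and not a test. Tnfaip2, a TNF-induced gene, rose by a log2 fold change of 2.33 (edgeR adjusted p = 0.00968). Socs3, an inhibitor of cytokine receptor signalling named here after its values were seen, was lower in both treated libraries, at 137 and 227 CPM in the controls and 60 and 103 CPM with cytokines (log2 fold change -1.16, edgeR adjusted p = 0.096, and 0.000136 with the replicate block). The count of 11 fell to 5 without dKO control replicate 1, WT control replicate 1 or WT control replicate 2, to 6 without WT cytokines replicate 1 or 2, and to 7 without dKO control replicate 2 or dKO cytokines replicate 1. Tnfaip3, Birc3 and Ripk2 passed in each of the 8 fits that left out 1 library (highest edgeR adjusted p = 0.048). Tnfaip2 missed the threshold without dKO control replicate 1 (edgeR adjusted p up to 0.0539).

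The stretches just upstream of Nfkbia, Il6 and Cxcl1 are given because each gene was higher in both treated dKO libraries and each stretch carries an NF-kB pattern. They are the 250 bases before the start of each gene from RefSeq (GRCm38.p6), read 5′ to 3′ on the gene's strand. Capitals mark matches on either strand to the NF-kB pattern (GGG, any 3 bases, TTCC) or the AP-1 pattern TGANTCA. The Nfkbia window (chr12:55492648-55492897, minus strand; gene ENSMUSG00000021025 at chr12:55489410-55492647) holds 1 NF-kB match, the Il6 window (chr5:30012864-30013113, plus strand; gene ENSMUSG00000025746 at chr5:30013114-30019981) holds 1 NF-kB and 1 AP-1 match, and the Cxcl1 window (chr5:90890995-90891244, plus strand; gene ENSMUSG00000029380 at chr5:90891241-90893115) holds 3 NF-kB matches, the latter pair overlapping.
Nfkbia: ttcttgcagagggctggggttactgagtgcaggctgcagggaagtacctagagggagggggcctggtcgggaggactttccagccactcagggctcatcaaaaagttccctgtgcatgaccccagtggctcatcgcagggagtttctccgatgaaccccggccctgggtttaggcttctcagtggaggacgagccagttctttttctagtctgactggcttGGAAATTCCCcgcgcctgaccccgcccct
Il6: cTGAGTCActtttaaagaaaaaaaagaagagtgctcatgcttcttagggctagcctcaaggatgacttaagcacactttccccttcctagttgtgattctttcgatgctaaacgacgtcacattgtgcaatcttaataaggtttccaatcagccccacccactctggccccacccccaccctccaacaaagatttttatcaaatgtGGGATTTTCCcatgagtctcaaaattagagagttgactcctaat
Cxcl1: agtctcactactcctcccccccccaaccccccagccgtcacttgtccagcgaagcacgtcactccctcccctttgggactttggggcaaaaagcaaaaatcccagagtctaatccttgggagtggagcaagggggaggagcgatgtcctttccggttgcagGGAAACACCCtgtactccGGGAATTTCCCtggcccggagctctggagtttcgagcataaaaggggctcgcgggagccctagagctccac
The NF-kB pattern occurs in 4.6% of all 32851 such windows in the table and in 6.2% of the 11162 tested genes that have a window. Of the 426 genes higher in dKO that have a window, 42 hold it (9.9%), against 12 of 244 lower genes (4.9%). Among NF-kB subunits and IkB proteins 6 of 11 hold it, and among CXC and CX3C chemokines 4 of 10. A match describes the letters and is not a measured binding site. The 250-base window of Ptgs2 held none of these patterns, nor the GAS pattern (TTC, any 3 bases, GAA), which 7.0% of all windows hold. The AP-1 pattern is in 6.7% of all windows.

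Chemokine genes were among the larger rises in dKO. Of 11 CC chemokines tested, 3 were higher and 0 lower, with a median log2 fold change of 2.04, and with the replicate block 6 were higher. Ccl2, which draws monocytes, was at 1285 and 1664 CPM in the controls and 8206 and 10205 CPM with cytokines (log2 fold change 2.64 ± 0.21 (SE), edgeR adjusted p = 0.00516). Ccl7, a related monocyte chemokine, was at 1103 and 951 CPM in the controls and 4067 and 4360.5 CPM with cytokines (log2 fold change 2.04 ± 0.19 (SE), edgeR adjusted p = 0.00639). Ccl5, which draws T cells, was at 0.402 and 0.125 CPM in the controls and 48.3 and 32.1 CPM with cytokines (log2 fold change 7.25 ± 0.61 (SE), edgeR adjusted p = 0.00601). Ccl20 was at 2.19 and 5.61 CPM in the controls and 11.8 and 45.5 CPM with cytokines and did not pass (edgeR adjusted p = 0.0888, and 2.39e-05 with the replicate block). Ccl2, Ccl7 and Ccl5 passed in each of the 8 fits that left out 1 library (highest edgeR adjusted p = 0.0358). Ccl5 had a log2 fold change of 8.27 without dKO control replicate 1 and 6.63 without dKO control replicate 2.

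Of 13 CXC and CX3C chemokines, 4 were higher and 0 lower, with a median of 1.90, and with the replicate block 7 were higher and 2 lower. Cxcl2 and Cxcl3, neutrophil chemokines, rose by log2 fold changes of 3.39 and 3.15 (edgeR adjusted p = 0.012 and 0.00445). Cxcl2 was at 345 and 239 CPM in the controls and 3191 and 2928 CPM with cytokines. Cx3cl1, a membrane-bound chemokine, was at 100.1 and 65.6 CPM in the controls and 797 and 356 CPM with cytokines (log2 fold change 2.80 ± 0.50 (SE), edgeR adjusted p = 0.0351). Cxcl16, which also sits on the membrane, rose by 1.56 (edgeR adjusted p = 0.00516). Cxcl1 was higher in both treated libraries, at 121 and 169.7 CPM in the controls and 488 and 825 CPM with cytokines (log2 fold change 2.17, edgeR adjusted p = 0.103, and 1.57e-05 with the replicate block). Without dKO control replicate 1 or dKO cytokines replicate 1, 2 of the 13 were higher. Cxcl3 and Cxcl16 passed in each of the 8 fits that left out 1 library (highest edgeR adjusted p = 0.0233). Cxcl2 missed the threshold without dKO control replicate 1 or dKO cytokines replicate 1 (edgeR adjusted p up to 0.0539). Cx3cl1 passed the threshold only without dKO cytokines replicate 2 (edgeR adjusted p up to 0.134). Cx3cl1 had a log2 fold change of 2.1 without dKO cytokines replicate 1.

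Among 17 interleukins, alarmins and colony-stimulating factors, 7 were higher and 0 lower in dKO, with a median log2 fold change of 2.80, and with the replicate block 11 were higher and 1 lower. Il6 was at 55.9 and 75.6 CPM in the controls and 1552 and 1076 CPM with cytokines, a 20-fold rise (log2 fold change 4.32 ± 0.36 (SE), edgeR adjusted p = 0.00578). Tslp, an alarmin of barrier tissue, was at 4.02 and 7.32 CPM in the controls and 118 and 277 CPM with cytokines (log2 fold change 5.12 ± 0.63 (SE), edgeR adjusted p = 0.0166). Lif, a cytokine of the IL-6 family, was at 8.13 and 38.6 CPM in the controls and 429 and 715 CPM with cytokines (log2 fold change 4.61 ± 0.87 (SE), edgeR adjusted p = 0.0426). All 3 genes had both treated libraries above both controls, with Lif far apart between the controls. Csf3, which drives neutrophil production, rose by 2.60 (edgeR adjusted p = 0.0205). Il1a, an alarmin that signals through the same receptor as IL1B, was at 7.95 and 11.7 CPM in the controls and 65.5 and 71.4 CPM with cytokines (log2 fold change 2.80 ± 0.20 (SE), edgeR adjusted p = 0.00445). Csf2 was at 0.0447 and 4.99 CPM in the controls and 21.2 and 117 CPM with cytokines and did not pass (edgeR adjusted p = 0.119, and 0.0138 with the replicate block). Without dKO control replicate 1, 3 of the 17 were higher. Il6 and Il1a passed in each of the 8 fits that left out 1 library (highest edgeR adjusted p = 0.0441). Tslp missed the threshold without dKO control replicate 1 (edgeR adjusted p up to 0.0941). Lif passed the threshold only without dKO control replicate 2 (edgeR adjusted p up to 0.123). Csf3 missed the threshold without dKO control replicate 1 or dKO cytokines replicate 1 (edgeR adjusted p up to 0.0965). Tslp had a log2 fold change of 4.38 without dKO cytokines replicate 2. Lif had a log2 fold change of 3.89 without dKO control replicate 1 and 6.14 without dKO control replicate 2.

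Of 14 prostanoid, nitric oxide and endothelin genes, 4 rose and 0 fell, with a median of 0.18. Ptgs2 encodes cyclooxygenase 2, the inducible step of prostanoid synthesis, and was at 39.4 and 93.3 CPM in the controls and 3931 and 3582 CPM with cytokines, a 56.6-fold rise (log2 fold change 5.82 ± 0.46 (SE), edgeR adjusted p = 0.00516). Ptges, which makes prostaglandin E2, was at 107 and 177 CPM in the controls and 1239.7 and 1104 CPM with cytokines (log2 fold change 3.04 ± 0.24 (SE), edgeR adjusted p = 0.00516). Nos2, the inducible nitric oxide synthase, was at 22.6 and 17.9 CPM in the controls and 1009 and 380.3 CPM with cytokines (log2 fold change 5.10 ± 0.55 (SE), edgeR adjusted p = 0.0117). Gch1, which supplies the cofactor of nitric oxide synthases, rose by 0.83 (edgeR adjusted p = 0.0379). The blocked test called 4 of the 14 higher and 4 lower. Without dKO control replicate 1, 2 were higher. Of 16 acute-phase and antimicrobial genes 1 was higher, which was Nos2, and 0 lower, a share of 6.25% beside 5.55% of all tested genes. With the replicate block 3 were higher and 5 lower, and without dKO control replicate 1 the higher count was 0, while without dKO cytokines replicate 2 the lower count was 1. Steap4, a metalloreductase, was at 1593 and 1613 CPM in the controls and 717 and 1199.8 CPM with cytokines (edgeR adjusted p = 0.134, and 0.0139 with the replicate block). Ptgs2 and Ptges passed in each of the 8 fits that left out 1 library (highest edgeR adjusted p = 0.0233). Nos2 missed the threshold without dKO control replicate 1 (edgeR adjusted p up to 0.0795). Gch1 passed the threshold only without dKO cytokines replicate 2 (edgeR adjusted p up to 0.144). Ptgs2 had a log2 fold change of 6.58 without dKO control replicate 2. Nos2 had a log2 fold change of 4.23 without dKO cytokines replicate 1.

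Adhesion molecules for leukocytes were higher in part. Of 18 tested, 4 rose and 0 fell, with a median of 0.57, and with the replicate block 8 were higher and 2 lower. Icam1, the ligand of leukocyte beta-2 integrins, was at 265 and 497 CPM in the controls and 1610.0 and 2128 CPM with cytokines (log2 fold change 2.29 ± 0.33 (SE), edgeR adjusted p = 0.0192). Vcam1, the ligand of the integrin VLA-4, was at 1179.8 and 953 CPM in the controls and 3724 and 2612 CPM with cytokines (log2 fold change 1.57 ± 0.29 (SE), edgeR adjusted p = 0.0338). Cd44, a hyaluronan receptor, was at 89.7 and 57.2 CPM in the controls and 1072 and 479 CPM with cytokines (log2 fold change 3.40 ± 0.47 (SE), edgeR adjusted p = 0.0207). The treated libraries of each lay above both controls. Alcam, an adhesion molecule of activated cells, rose by 1.10 (edgeR adjusted p = 0.043). Sele, the endothelial selectin induced by TNF, was at 15.8 and 104 CPM in the controls and 418 and 697 CPM with cytokines. Its log2 fold change of 3.22 did not pass (edgeR adjusted p = 0.0919), and passed with the replicate block (0.0295). Selp was at 1127 and 2393 CPM in the controls and 2121 and 3509.6 CPM with cytokines (edgeR adjusted p = 0.357, and 0.00794 with the replicate block). The count of 4 fell to 1 without dKO control replicate 1 or dKO cytokines replicate 1, to 2 without dKO control replicate 2, and to 0 without WT control replicate 1 or 2. Icam1 missed the threshold without dKO cytokines replicate 1 or WT control replicate 1 or 2 (edgeR adjusted p up to 0.0555). Vcam1 passed the threshold only without dKO cytokines replicate 2 or WT cytokines replicate 1 or 2 (edgeR adjusted p up to 0.125). Cd44 missed the threshold without dKO control replicate 1 or 2 or WT control replicate 1 or 2 (edgeR adjusted p up to 0.0857). Alcam missed the threshold whichever library was left out (edgeR adjusted p up to 0.176). Cd44 had a log2 fold change of 2.7 without dKO cytokines replicate 1.

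Antiviral interferon-stimulated genes had no call in dKO in the main test. Of 30 antiviral interferon-stimulated genes, 0 were higher and 0 lower by edgeR, with a median log2 fold change of 0.19, 3 had an unadjusted p under 0.05, and DESeq2 called 2 higher. With the replicate block 2 were higher, and in WT 28 of the 30 were higher with a median of 3.47. Ifnb1 had 0 counts in all 4 dKO libraries and 10 and 2 counts in the WT libraries with cytokines. Isg15, a ubiquitin-like protein induced by interferon, was at 6.17 and 3.58 CPM in the controls and 11.6 and 7.07 CPM with cytokines (log2 fold change 0.94 ± 0.63 (SE), edgeR adjusted p = 0.438), against 3.51 and 4.99 CPM in the WT controls and 302 and 93.1 CPM in WT with cytokines. Cxcl10, a chemokine with both NF-kB and interferon control, was at 0.179 and 0.374 CPM in the controls and 1.45 and 1.68 CPM with cytokines (edgeR adjusted p = 0.226), against 0.443 and 0.843 CPM in the WT controls and 500.3 and 127 CPM in WT with cytokines. Cxcl11 had 0 counts in dKO and 127 and 48 in WT with cytokines, and its counts are uncertain because it shares exon bases with a pseudogene. Mx1 was at 0 and 0.249 CPM in the controls and 1.18 and 0.751 CPM with cytokines, and did not pass (log2 fold change 2.86, edgeR adjusted p = 0.181). The log2 fold change of Cxcl10 in dKO was 2.47. Isg15, Cxcl10 and Mx1 were each higher in both treated dKO libraries than in both dKO controls, at low levels. Of the 30 antiviral genes, 21 had a log2 fold change above 0 in dKO.

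The windows upstream of Isg15 and Cxcl10 are shown because both genes were at far lower levels in treated dKO than in treated WT libraries. Capitals mark, on either strand, the interferon-response (ISRE) pattern (TTTC, any 2 bases, TTTC), the NF-kB pattern and the AP-1 pattern. The Isg15 window (chr4:156200819-156201068, minus strand; gene ENSMUSG00000035692 at chr4:156199424-156200818) holds 3 overlapping ISRE matches, and the Cxcl10 window (chr5:92348890-92349139, minus strand; gene ENSMUSG00000034855 at chr5:92346638-92348889) holds 2 NF-kB matches, 1 ISRE match and 1 AP-1 match.
Isg15: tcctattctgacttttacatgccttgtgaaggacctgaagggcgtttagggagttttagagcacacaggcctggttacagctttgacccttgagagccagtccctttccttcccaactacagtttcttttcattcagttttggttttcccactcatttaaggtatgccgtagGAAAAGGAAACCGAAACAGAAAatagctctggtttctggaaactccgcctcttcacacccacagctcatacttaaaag
Cxcl10: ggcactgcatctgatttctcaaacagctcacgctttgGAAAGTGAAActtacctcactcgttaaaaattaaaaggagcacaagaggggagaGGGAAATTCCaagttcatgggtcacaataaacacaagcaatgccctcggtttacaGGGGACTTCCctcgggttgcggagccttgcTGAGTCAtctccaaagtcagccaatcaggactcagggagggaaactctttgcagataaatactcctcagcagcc
The ISRE pattern occurs in 3.0% of all windows and in 3.2% of those of tested genes. Of the 24 antiviral genes with a window, 8 hold it and 7 hold the NF-kB pattern. All 9 interferon-inducible GTPases with a window hold the ISRE pattern. Among genes higher in dKO it was in 11 of 426 windows (2.6%).

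Upstream of these genes, the interferon receptor and signalling genes rose in part. Of 20 receptor, JAK-STAT and IRF genes, 4 were higher and 0 lower, with a median of 0.33, and with the replicate block 9 were higher. Jak2, a kinase shared by several cytokine receptors, was at 317 and 271 CPM in the controls and 1418 and 1187 CPM with cytokines (log2 fold change 2.15 ± 0.15 (SE), edgeR adjusted p = 0.00445). Irf1, a transcription factor that both NF-kB and interferon can induce, was at 43.6 and 41.5 CPM in the controls and 134 and 119 CPM with cytokines (log2 fold change 1.57 ± 0.19 (SE), edgeR adjusted p = 0.0136). Ifnar1, a chain of the receptor for type I interferon, rose by 1.15 (edgeR adjusted p = 0.0127). Irf7 was at 6.88 and 6.44 CPM in the controls and 7.5 and 6.1 CPM with cytokines, and did not pass (edgeR adjusted p = 0.983). Without dKO control replicate 1, 1 of the 20 was higher, and without dKO cytokines replicate 1, 2 were. Jak2 passed in each of the 8 fits that left out 1 library (highest edgeR adjusted p = 0.021). Irf1 missed the threshold without dKO control replicate 1 or dKO cytokines replicate 1 (edgeR adjusted p up to 0.0733). Ifnar1 missed the threshold without dKO control replicate 1 (edgeR adjusted p up to 0.0513).

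Among interferon-inducible GTPases, some guanylate-binding proteins rose. Of 15 tested, 3 were higher in dKO and 0 lower, with a median of 1.19, while the blocked test called 7 higher. Gbp4, a guanylate-binding protein, was at 13.2 and 14.8 CPM in the controls and 138 and 124 CPM with cytokines (log2 fold change 3.22 ± 0.25 (SE), edgeR adjusted p = 0.00516). Gbp9 was at 56.4 and 86 CPM in the controls and 369 and 428 CPM with cytokines and rose by 2.48 (edgeR adjusted p = 0.00664), and Gbp6 rose by 2.48 (edgeR adjusted p = 0.0207). These genes have near-identical relatives that may share reads, and Gbp6 also shares exon bases with another gene, so its counts are uncertain. In the MHC class I and immunoproteasome list, 2 of 16 were higher, which is 12.5% beside 5.55% of all tested genes. They were Psmb10, by 1.47 (edgeR adjusted p = 0.028), and Erap1, by 0.85 (edgeR adjusted p = 0.0229), and with the replicate block 9 were higher. That count of 2 was 0 without dKO control replicate 1 or 2, dKO cytokines replicate 1 or WT control replicate 1 or 2, and 4 without WT cytokines replicate 1 or 2. H2-K1, a class I heavy chain, was at 392 and 369 CPM in the controls and 724 and 648 CPM with cytokines (edgeR adjusted p = 0.0529, and 0.00266 with the replicate block). Gbp4 and Gbp9 passed in each of the 8 fits that left out 1 library (highest edgeR adjusted p = 0.0313). Gbp6 and Erap1 passed the threshold only without dKO cytokines replicate 2 or WT cytokines replicate 1 or 2 (edgeR adjusted p up to 0.104). Psmb10 passed the threshold only without WT cytokines replicate 1 or 2 (edgeR adjusted p up to 0.141).

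**Figure D2:**
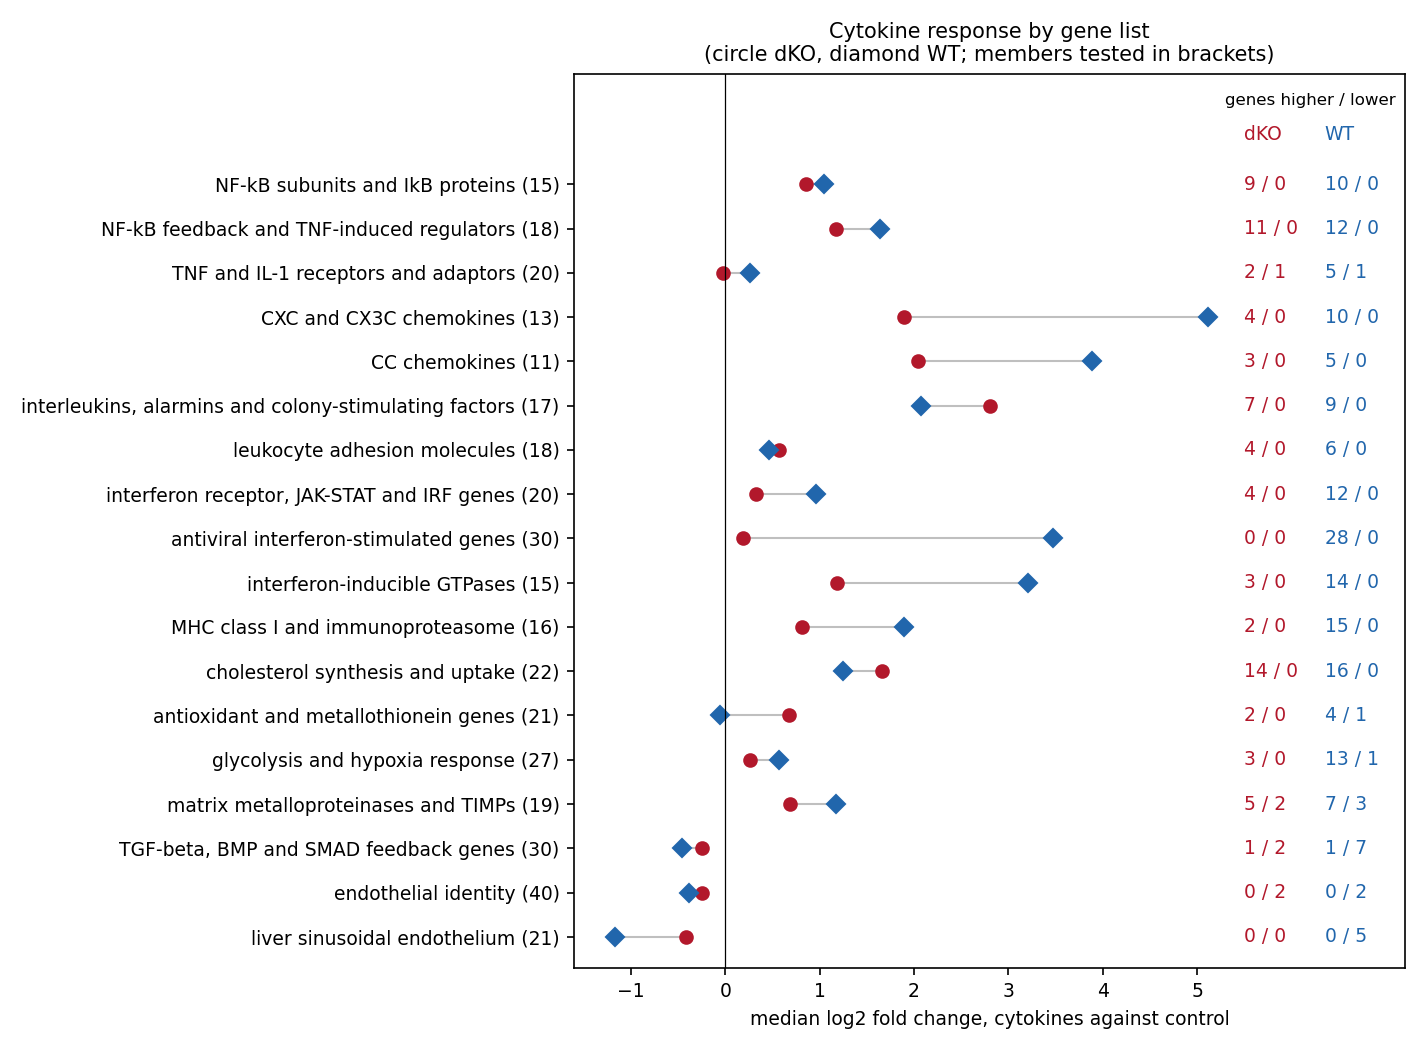
Median log2 fold change of 18 gene lists, circles for dKO and diamonds for WT, with the numbers of genes higher and lower at the right. The antiviral list sits at 0.19 in dKO and 3.47 in WT, whereas NF-kB subunits lie at 0.85 and 1.04 and cholesterol genes at 1.66 and 1.25.

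Most genes of cholesterol synthesis and uptake rose in dKO. Of 22 tested, 14 were higher and 0 lower (20 and 1 with the replicate block) with a median log2 fold change of 1.66, and in WT 16 were higher with a median of 1.25. Hmgcs1, which makes the precursor of mevalonate, was at 53.2 and 35.4 CPM in the controls and 262 and 129 CPM with cytokines (log2 fold change 2.14 ± 0.37 (SE), edgeR adjusted p = 0.0334). Idi1, an isoprenoid isomerase, was at 7.28 and 4.99 CPM in the controls and 44.7 and 22.3 CPM with cytokines (log2 fold change 2.45 ± 0.37 (SE), edgeR adjusted p = 0.0224). Cyp51, a demethylase of the sterol pathway, was at 51 and 30.8 CPM in the controls and 255 and 129.7 CPM with cytokines (log2 fold change 2.23 ± 0.39 (SE), edgeR adjusted p = 0.0334). Replicate 1 with cytokines was the higher of the treated libraries in all 3 genes. The count of 14 was 0 without dKO control replicate 1, 1 without dKO control replicate 2 or without either WT control, 6 without dKO cytokines replicate 1, and 4 and 3 without WT cytokines replicate 1 or 2. Hmgcs1 and Cyp51 passed the threshold only without dKO cytokines replicate 2 (edgeR adjusted p up to 0.105). Idi1 passed the threshold only without dKO cytokines replicate 1 or 2 or WT cytokines replicate 1 (edgeR adjusted p up to 0.0851). Hmgcs1 had a log2 fold change of 1.54 without dKO cytokines replicate 1. Idi1 had a log2 fold change of 1.86 without dKO cytokines replicate 1.

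Antioxidant genes had a median log2 ratio of 0.89 in dKO replicate 1 and 0.46 in replicate 2. Of 21 genes, 2 rose and 0 fell, which is 9.52% beside 5.55% of all tested genes, with a median of 0.67. With the replicate block 10 were higher and 2 lower. Slc7a11, a cystine transporter, was at 8.27 and 15.1 CPM in the controls and 269 and 136 CPM with cytokines (log2 fold change 4.11 ± 0.44 (SE), edgeR adjusted p = 0.0114), and Sod2, a mitochondrial superoxide dismutase, rose by 1.23 (edgeR adjusted p = 0.0103). Nqo1, Hmox1 and Srxn1, targets of the stress factor NRF2 named after their values were seen, were higher in both treated libraries and did not pass (edgeR adjusted p = 0.0993, 0.0932 and 0.0927, and 0.0155 for Nqo1 with the replicate block). Nqo1 was at 22.1 and 11.9 CPM in the controls and 179.6 and 40.4 CPM with cytokines, and Hmox1 at 136 and 159 CPM in the controls and 736 and 247 CPM with cytokines. The difference between the dKO and WT responses of Nqo1 passed with the block (3.24 on the log2 scale, edgeR adjusted p = 0.0479), not without it. With the block the response was higher in dKO than in WT for 5 of the 21 genes and lower for 3. Over all tested genes those shares were 3.24% and 2.8%. In WT, Nqo1, Hmox1 and Srxn1 had log2 fold changes of -0.81, 0.17 and 0.13. With both dKO libraries of number 2 left out, 11 of the 21 were higher and 1 was lower. Without dKO cytokines replicate 2 alone 10 were higher, and without dKO control replicate 1 the number was 0. Slc7a11 and Sod2 missed the threshold without dKO control replicate 1 (edgeR adjusted p up to 0.054).

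**Figure D3:**
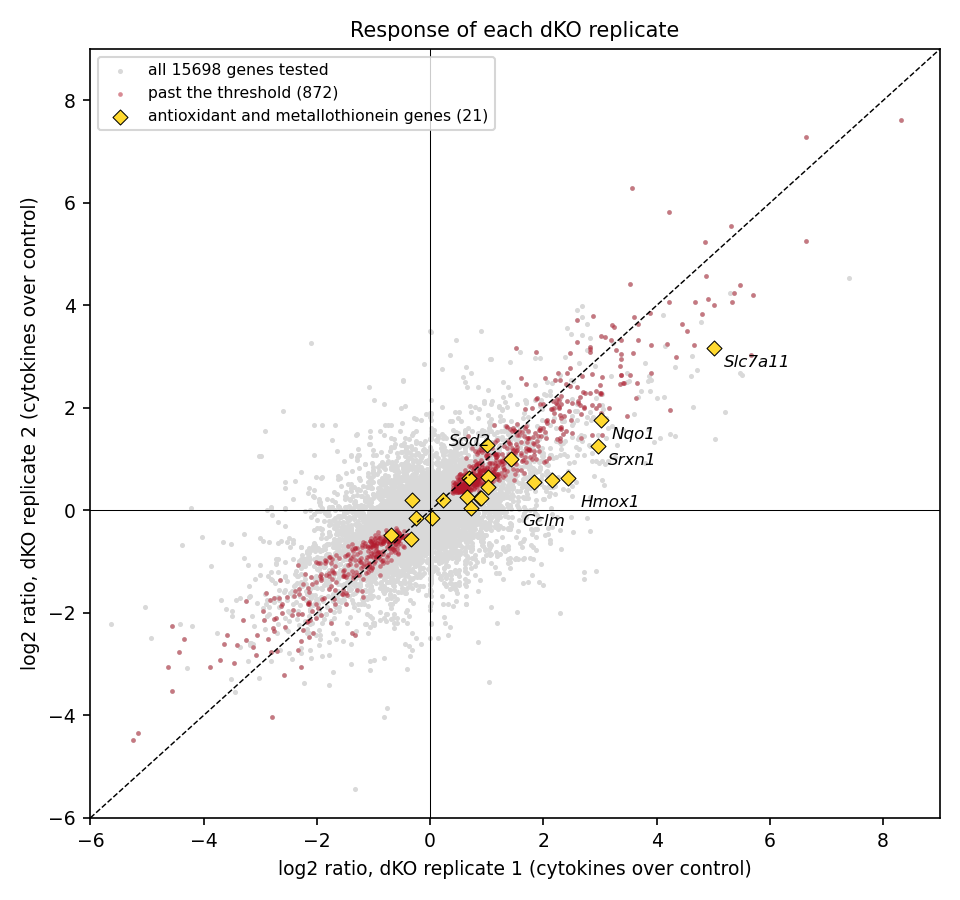
Log2 ratio of cytokines over control for each gene in dKO replicate 1 and replicate 2, with the 872 genes past the threshold in red and 21 antioxidant and metallothionein genes as yellow diamonds. Nqo1, Srxn1, Hmox1 and Gclm lie below the dashed line of equal response, that is, their ratio was larger in replicate 1.

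Beside the 5.55% called over all tested genes, 20% of unfolded protein and stress response genes were called. Of glycolysis and hypoxia genes 11.1% were called, and of AP-1 and immediate early genes, a list that also holds Cebpb and Cebpd, 25%. Of 20 unfolded protein and stress response genes, 4 were higher and 0 lower, led by Calr (log2 fold change 0.68 ± 0.11 (SE), edgeR adjusted p = 0.0236) and Pdia4 (log2 fold change 0.61 ± 0.09 (SE), edgeR adjusted p = 0.0192), both chaperones of the endoplasmic reticulum, and with the replicate block 10 were higher and 1 lower. Of 27 glycolysis and hypoxia genes, 3 were higher in dKO, namely Ddit4, Slc2a1 and Egln3, with log2 fold changes of 1.60, 0.96 and 0.78 (edgeR adjusted p = 0.0255, 0.0208 and 0.0192), while in WT 13 were higher. The blocked test called 9 higher and 1 lower in dKO. Among 20 AP-1 and immediate early genes, 4 rose and 1 fell, and with the replicate block 13 rose and 1 fell. Cebpb was at 180.5 and 180.3 CPM in the controls and 444 and 343 CPM with cytokines (log2 fold change 1.12 ± 0.15 (SE), edgeR adjusted p = 0.0174), Jun rose by 1.56 (edgeR adjusted p = 0.0375), and Cebpd was at 719 and 741 CPM in the controls and 227 and 405 CPM with cytokines and fell (log2 fold change -1.21 ± 0.25 (SE), edgeR adjusted p = 0.047). Cebpb shares exon bases with another gene, so its counts are uncertain. With 1 library left out, at most 1 unfolded protein or stress gene was higher (1 without dKO cytokines replicate 2 or WT cytokines replicate 1, otherwise 0). The glycolysis count of 3 was 1 without dKO control replicate 2, 3 without dKO cytokines replicate 2 and 0 without any other library. The AP-1 count of 4 was 8 without dKO control replicate 2, 0 without dKO cytokines replicate 1, 1 without dKO control replicate 1 or WT control replicate 1 or 2, and 2 without dKO cytokines replicate 2 or WT cytokines replicate 1 or 2. Cebpb missed the threshold without dKO control replicate 1 or dKO cytokines replicate 1 (edgeR adjusted p up to 0.0841). Jun passed the threshold only without dKO control replicate 2 (edgeR adjusted p up to 0.105). Cebpd, Ddit4 and Egln3 passed the threshold only without dKO cytokines replicate 2 (edgeR adjusted p up to 0.159). Calr missed the threshold whichever library was left out (edgeR adjusted p up to 0.0984). Pdia4 passed the threshold only without dKO cytokines replicate 2 or WT cytokines replicate 1 (edgeR adjusted p up to 0.0851). Slc2a1 passed the threshold only without dKO control replicate 2 or dKO cytokines replicate 2 (edgeR adjusted p up to 0.0898).

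Matrix metalloproteinases and their inhibitors had calls in both directions. Of 19 metalloproteinase and TIMP genes, 5 were higher and 2 lower, with a median of 0.68, and with the replicate block 9 were higher and 5 lower. Mmp9, a gelatinase, was at 3.93 and 1.41 CPM in the controls and 74.5 and 84.3 CPM with cytokines (log2 fold change 4.90 ± 0.44 (SE), edgeR adjusted p = 0.00664). Adamts4, an aggrecanase, was at 63.9 and 82.9 CPM in the controls and 1294 and 663 CPM with cytokines (log2 fold change 3.74 ± 0.38 (SE), edgeR adjusted p = 0.0091). Timp1, an inhibitor of these enzymes, was at 294 and 233 CPM in the controls and 1439.7 and 713 CPM with cytokines (log2 fold change 2.03 ± 0.33 (SE), edgeR adjusted p = 0.0253), and Timp3, another inhibitor that binds the matrix, was at 221 and 244 CPM in the controls and 49.3 and 85.6 CPM with cytokines and fell (log2 fold change -1.79 ± 0.34 (SE), edgeR adjusted p = 0.0407). Mmp3 and Mmp13 were higher in both treated libraries and did not pass (edgeR adjusted p = 0.153 and 0.123, and 0.0167 and 0.0107 with the replicate block). Timp3 shares exon bases with another gene, so its counts are uncertain. The count of 5 fell to 1 without dKO control replicate 1, and to 3 without WT control replicate 1 or 2 or WT cytokines replicate 1 or 2. The lower count was 2 without dKO control replicate 2, 1 without dKO cytokines replicate 2 and 0 without any other library. Mmp9 passed in each of the 8 fits that left out 1 library (highest edgeR adjusted p = 0.0277). Adamts4 missed the threshold without dKO control replicate 1 (edgeR adjusted p up to 0.065). Timp1 passed the threshold only without dKO cytokines replicate 1 or 2 (edgeR adjusted p up to 0.105). Timp3 passed the threshold only without dKO cytokines replicate 2 (edgeR adjusted p up to 0.132). Mmp9 had a log2 fold change of 5.8 without dKO control replicate 1. Timp1 had a log2 fold change of 1.43 without dKO cytokines replicate 1.

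The share of endothelial identity genes called was close to that over all tested genes (5% and 5.55%). Of 40 tested, 0 were higher and 2 lower with a median log2 fold change of -0.24, and with the replicate block 8 were higher and 11 lower, where 12.7% and 11.3% of all tested genes were. Vwf, the platelet-binding protein of endothelial granules, was at 539.9 and 718 CPM in the controls and 226 and 301 CPM with cytokines and fell (log2 fold change -1.25 ± 0.25 (SE), edgeR adjusted p = 0.0426). Nrp1, a coreceptor for VEGF, was at 122 and 101 CPM in the controls and 61.7 and 49.5 CPM with cytokines and fell (log2 fold change -1.0 ± 0.15 (SE), edgeR adjusted p = 0.0207). Eng, a TGF-beta coreceptor, was at 559 and 960.1 CPM in the controls and 320.3 and 417 CPM with cytokines (edgeR adjusted p = 0.0764, and 0.00104 with the replicate block). The lower count of 2 was 2 without dKO control replicate 2 or dKO cytokines replicate 2, 1 without dKO control replicate 1, dKO cytokines replicate 1 or WT cytokines replicate 1, and 0 without any other library, and 2 genes were higher without dKO control replicate 2. Of 21 liver sinusoidal genes 0 passed by edgeR, with a median of -0.42, 2 had an unadjusted p under 0.05, and DESeq2 called 1 lower. With the block 0 of the 21 were higher and 9 lower, and without dKO control replicate 2, 1 was higher and 1 lower. In the TGF-beta, BMP and SMAD list, 1 of 30 was higher and 2 lower, together 10% beside 5.55% of all tested genes. With the replicate block 7 were higher and 10 lower, where 12.7% and 11.3% of all tested genes were. There the higher count was 2 without dKO control replicate 2 or WT cytokines replicate 2, 1 without dKO cytokines replicate 2 or WT cytokines replicate 1 and 0 otherwise, and the lower count was 1 without dKO cytokines replicate 1 or any WT library. Tgfbr2, a receptor chain, was at 446 and 592 CPM in the controls and 219.5 and 270.0 CPM with cytokines and fell (log2 fold change -1.08 ± 0.17 (SE), edgeR adjusted p = 0.0216), and Smad9 was at 3.84 and 4.28 CPM in the controls and 0.727 and 0.442 CPM with cytokines and fell (log2 fold change -2.79 ± 0.32 (SE), edgeR adjusted p = 0.0116). Inhba, a subunit of activin, was at 84.8 and 130.2 CPM in the controls and 295 and 259 CPM with cytokines and rose (log2 fold change 1.37 ± 0.21 (SE), edgeR adjusted p = 0.0224). Smad9 passed in each of the 8 fits that left out 1 library (highest edgeR adjusted p = 0.048). Vwf missed the threshold whichever library was left out (edgeR adjusted p up to 0.174). Nrp1 missed the threshold without dKO control replicate 1, WT control replicate 1 or 2 or WT cytokines replicate 2 (edgeR adjusted p up to 0.0838). Tgfbr2 passed the threshold only without dKO control replicate 1 or 2 or dKO cytokines replicate 2 (edgeR adjusted p up to 0.0902). Inhba passed the threshold only without dKO control replicate 2, dKO cytokines replicate 2 or WT cytokines replicate 2 (edgeR adjusted p up to 0.0965).

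The largest rises of genes reaching 10 CPM included several secreted proteins. Sprr2e, of a keratinocyte envelope family, went from 3 counts over both controls to 1883 over both treated libraries, a ratio of 652.7 (95% counting interval 223 to 3168), and its family members are near copies that may share reads. Clec4e, a C-type lectin receptor, was at 7.33 and 6.65 CPM in the controls and 293 and 315 CPM with cytokines (log2 fold change 5.44 ± 0.28 (SE), edgeR adjusted p = 0.00407), and Enpp2, which makes lysophosphatidic acid, at 27.2 and 68 CPM in the controls and 1092 and 1138 CPM with cytokines (log2 fold change 4.55 ± 0.45 (SE), edgeR adjusted p = 0.00869). Penk, the enkephalin precursor, was at 0.626 and 0.208 CPM in the controls and 8.31 and 22.7 CPM with cytokines (log2 fold change 5.22 ± 0.78 (SE), edgeR adjusted p = 0.0219). The largest falls were of Crh, Ccn5 and Plin4. Crh, the corticotropin-releasing hormone, was at 38.7 and 17.7 CPM in the controls and 0.999 and 0.795 CPM with cytokines (log2 fold change -4.97 ± 0.47 (SE), edgeR adjusted p = 0.0108). Ccn5, a matrix-associated growth regulator, was at 306 and 126 CPM in the controls and 12.3 and 15.2 CPM with cytokines (log2 fold change -3.97 ± 0.49 (SE), edgeR adjusted p = 0.017). Plin4, a lipid droplet protein, was at 18 and 4.53 CPM in the controls and 0.681 and 0.883 CPM with cytokines (log2 fold change -3.84 ± 0.79 (SE), edgeR adjusted p = 0.047). Vegfd and Bmx were also among the 12 largest falls, with log2 fold changes of -3.59 and -2.89 (edgeR adjusted p = 0.0253 and 0.0125). For each gene of this paragraph both treated libraries lay on the same side of both controls, which was a condition of being named here. Clec4e and Enpp2 passed in each of the 8 fits that left out 1 library (highest edgeR adjusted p = 0.0376). Sprr2e passed the threshold only without dKO cytokines replicate 1 or 2 or WT control replicate 2 (edgeR adjusted p up to 0.105). Penk passed the threshold only without dKO cytokines replicate 1 or 2 (edgeR adjusted p up to 0.0822). Crh missed the threshold without dKO cytokines replicate 1 (edgeR adjusted p up to 0.0653). Ccn5 missed the threshold without dKO cytokines replicate 1 or 2 (edgeR adjusted p up to 0.0967). Plin4 passed the threshold only without dKO control replicate 2 (edgeR adjusted p up to 0.203). Vegfd passed the threshold only without dKO control replicate 2 or WT control replicate 1 or 2 (edgeR adjusted p up to 0.126). Bmx missed the threshold without dKO control replicate 1 or dKO cytokines replicate 1 (edgeR adjusted p up to 0.0716). Enpp2 had a log2 fold change of 5.36 without dKO control replicate 2. Penk had a log2 fold change of 6.19 without dKO control replicate 1, 4.62 without dKO control replicate 2 and 4.32 without dKO cytokines replicate 2. Crh had a log2 fold change of -4.29 without dKO control replicate 1. Ccn5 had a log2 fold change of -3.2 without dKO control replicate 1. Plin4 had a log2 fold change of -2.53 without dKO control replicate 1 and -4.51 without dKO control replicate 2.

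Most genes called in dKO were called in the same direction in WT. In WT 2733 genes passed (9.72% higher and 7.69% lower, together 17.4% of all tested), a count of 413 and 513 without WT control replicate 1 or 2 and of 628 and 993 without WT cytokines replicate 1 or 2. Of these, 426 of the 549 genes higher in dKO were also higher in WT, which is 77.6% of the dKO list and 27.9% of the WT list. Of the 323 lower in dKO, 250 were also lower in WT (77.4% and 20.7%). Ugdh and Gstp1, chosen after their values were seen, were the only 2 called in opposite directions. The test of the difference between the dKO and WT responses passed 0 genes by edgeR (0% of those tested), with 1683 at an unadjusted p under 0.05. DESeq2 called 391, and the replicate block 947, of which 508 had a higher (3.24% of those tested) and 439 a lower response (2.8%) in dKO, together 6.03%. The difference test passed 15 genes without dKO cytokines replicate 2 and 41 without WT cytokines replicate 2. In the blocked fit the response of Ripk2 was lower in dKO than in WT by -2.07 on the log2 scale (edgeR adjusted p = 0.00185), as were those of Tnfaip3 (-1.22, 0.00437), Ccl7 (-1.83, 0.00626), Ccl20 (-2.96, 0.00176), Cxcl1 (-1.12, 0.00527) and Vcam1 (-1.20, 0.0108). Mean CPM in the dKO and WT controls was 1027 and 181 for Ccl7, 1066 and 617 for Vcam1 and 78.5 and 50.1 for Tnfaip3. It was 145 and 96.1 for Cxcl1, 41.2 and 40.1 for Ripk2 and 3.90 and 2.06 for Ccl20. With cytokines, mean CPM was 4214 in dKO and 2682 in WT for Ccl7, and was lower in dKO for the other genes just named. Further genes of the text with a lower response in dKO in that fit went both ways. Treated mean CPM in dKO and WT was 569 and 420 for Cxcl3 and 2539 and 1549 for Tnfaip2. It was 745 and 15.3 for Serpinb2 and 2915 and 596 for Mmp3. It was lower in dKO for Clec4e, Gbp6, Relb, Selp and Tslp. In the controls, mean CPM was also higher in dKO for Cxcl3, Tnfaip2, Serpinb2 and Mmp3. In the blocked fit Il1a (1.80, 0.00374), Gdf15 (3.04, 0.018) and Cebpb (1.18, 0.0127) had a higher response in dKO. There, 7 of the 30 antiviral genes and 4 of 15 GTPases had a lower response in dKO, and 0 a higher one. Isg15 and Cxcl10 differed by -4.36 and -6.25 on the log2 scale, and neither difference passed (edgeR adjusted p of the difference with the replicate block 0.106 and 0.222). Gdf15, a stress-induced cytokine, was at 4.33 and 2.79 CPM in the controls and 55.6 and 15.9 CPM with cytokines.

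**Figure D4:**
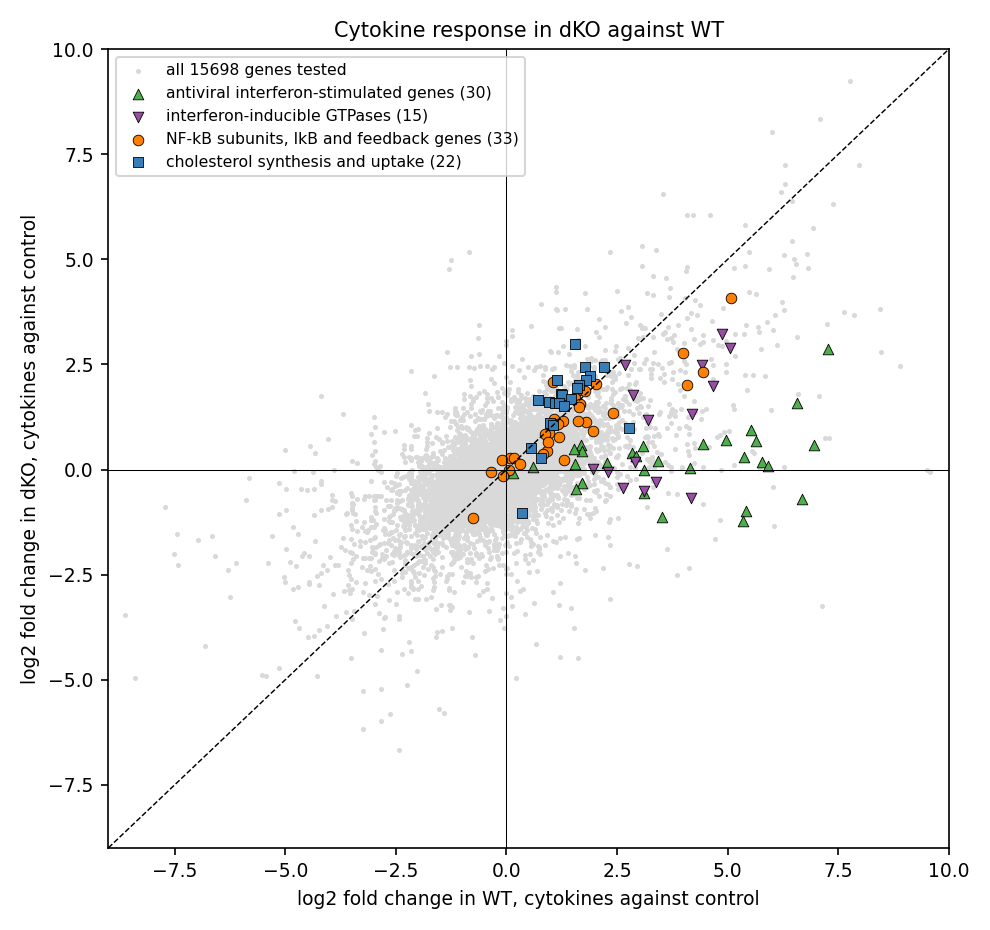
Log2 fold change with cytokines in dKO against WT for the genes of 4 groups, antiviral genes, interferon-inducible GTPases, NF-kB subunits and feedback genes, and cholesterol genes, with a dashed line of equal response. Antiviral genes lie between -1.21 and 2.86 in dKO and between 0.16 and 7.28 in WT.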

How the data were processed

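The authors deposited a table of raw gene counts. The submitters' processing notes list STAR 2.7.6a, FastQC 0.11.5 and the build GRCm38. Neither the counting program nor its annotation or strand setting is given in the sources used here. The labels' protocols name an unstranded and a stranded kit without saying which library had which, so reads of genes overlapping on opposite strands cannot be told apart. Gene coordinates are from GENCODE M21 on GRCm38, with the first base as 1.

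Tests used edgeR 4.0.16 under R 4.3.3 (TMM scaling, filtering by expression, robust quasi-likelihood fit with 1 coefficient per group over 8 libraries). The 15698 genes kept were tested two-sided. Benjamini-Hochberg adjusted p-values cover all of these genes, with a threshold of 0.05. The fit had 4 residual degrees of freedom and a common biological coefficient of variation of 24.3%. CPM uses library sizes scaled by TMM. SE is the absolute log2 fold change divided by the square root of F. An exact permutation of 2 against 2 libraries cannot go below p = 0.333, so a lack of overlap between them is a description only. Ratios with 1 to 3 counts carry 95% intervals, which cover counting error only. Figures used Python 3.11.15 with matplotlib 3.10.9, and the test was checked on simulated data.

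The main test had no replicate term and so ignored any pairing. In the replicate block only, equal library numbers within a genotype were treated as pairs. Column names share a stem and the data show it: deviations correlated at 0.689 in dKO and 0.434 in WT, and between 0.0168 and 0.134 across genotypes. The replicate block left 2 residual degrees of freedom. Alternatives were other size factors, no filter, DESeq2 1.42.0, the block, the 4 dKO libraries alone, and leaving out libraries.

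The members and lists were chosen with earlier results of these data known, so lists are described by counts and medians. Named genes were Erg, Fli1, genes with known roles in the response or as markers, the 12 largest rises and 12 largest falls reaching 10 CPM without overlap between libraries, the 8 largest differences of response in each direction (none passed), and up to 4 members of each list at 1 CPM or more, or the highest where none passed. Any other gene given was picked with its values in view. Genes sharing at least 20% of exon bases with another gene are called uncertain.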

Additional observations from a re-analysis of the deposited data

Results flagged for a closer look

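With the replicate as a block, 508 genes had a higher and 439 a lower cytokine response in dKO than in WT by the test of the difference itself (edgeR adjusted p under 0.05), whereas without the block 0 genes passed. Beyond the genes named above, chosen after their values were seen, Lpl, a lipoprotein lipase, was at 158 and 49.2 CPM in the controls and 108 and 31.3 CPM with cytokines in dKO, and 2.14 and 1.65 CPM in the WT controls and 30.7 and 24 CPM in WT with cytokines, a difference of -4.45 on the log2 scale (edgeR adjusted p with the block 1.26e-05). Ntn1, a guidance protein, was at 31.3 and 21.8 CPM in the controls and 33.7 and 22.3 CPM with cytokines in dKO, and 80.9 and 40.3 CPM in the WT controls and 11.4 and 5.46 CPM in WT with cytokines, a difference of 2.92 (0.000111). Cyp26b1, a retinoic acid hydroxylase, was at 8.76 and 22.8 CPM in the controls and 3.41 and 11.9 CPM with cytokines in dKO, and 42.6 and 65.5 CPM in the WT controls and 1.32 and 1.73 CPM in WT with cytokines, a difference of 4.03 (0.000295). Lpl was higher in both treated WT libraries than in both WT controls, and Ntn1 and Cyp26b1 were lower. In dKO, Lpl and Cyp26b1 were lower with cytokines within each replicate number and were called lower with the block (edgeR adjusted p = 0.00157 and 0.00124), not without it. Ntn1 was not called in dKO by either fit.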

How the results depend on the processing

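The replicate block, which pairs libraries within a genotype, raised the dKO count from 872 to 3769, the WT count from 2733 to 5943 and the count of differences from 0 to 947, with 871 of the 872 dKO genes shared. DESeq2 called 1852 in dKO and 391 differences. Without a filter on low counts 75 differences passed. The 4 dKO libraries alone gave 1 gene. Leaving out both dKO libraries of number 2 gave 1339 genes and 193 differences, and leaving out both of number 1 gave 411 genes and 1 difference. With 1 library left out, counts ran from 130 to 731 in dKO, from 413 to 2749 in WT and from 0 to 41 for the difference, where a lone library is taken to vary like the other groups. Other size factors gave 845 in dKO, 2692 in WT and 0 differences. Leaving out libraries lowers the residual degrees of freedom. What moved these counts was not tested.

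Of the 79 genes called in the text, 79 passed with DESeq2 and with the block, 78 with other size factors, 68 without the filter, 63 and 48 without both dKO libraries of number 2 or of number 1, 1 with the 4 dKO libraries alone, and 29 to 67 with 1 library left out. In these settings 0 of the 79 turned in sign. Irf7, not called, turned in sign without 1 library (range -0.13 to 0.17) and without both dKO libraries of number 1 (-0.092), and Fli1, not called, without 1 library (range -1.77 to 0.12). Among genes given with a dKO test, the block changed no call other than those printed beside the gene.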

Other observations

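Coagulation genes were called in both directions in dKO. Of 22 tested, 3 were higher and 1 lower, together 18.2% beside 5.55% of all tested genes, with a median log2 fold change of -0.11. With the replicate block 4 were higher and 7 lower, and DESeq2 called 4 higher and 6 lower. Serpine2, a protease inhibitor also called protease nexin 1, was at 46.8 and 30.7 CPM in the controls and 484 and 310.2 CPM with cytokines (log2 fold change 3.36 ± 0.29 (SE), edgeR adjusted p = 0.00583). Serpinb2, the plasminogen activator inhibitor 2, was at 219 and 156 CPM in the controls and 837 and 654 CPM with cytokines (log2 fold change 1.99 ± 0.32 (SE), edgeR adjusted p = 0.0252), and Procr, the endothelial protein C receptor, at 128 and 216 CPM in the controls and 554 and 441 CPM with cytokines (log2 fold change 1.53 ± 0.26 (SE), edgeR adjusted p = 0.0272). The count of 3 was 1 without dKO control replicate 1, dKO cytokines replicate 1 or WT cytokines replicate 1 or 2, and the lower count of 1 was 0 without dKO control replicate 1 or any WT library. Serpine2 passed in each of the 8 fits that left out 1 library (highest edgeR adjusted p = 0.0246). Serpinb2 passed the threshold only without dKO cytokines replicate 2 or WT control replicate 1 or 2 (edgeR adjusted p up to 0.0951). Procr passed the threshold only without dKO control replicate 2 or dKO cytokines replicate 2 (edgeR adjusted p up to 0.115).

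Sensors of microbial products rose in part. Of 18 pattern recognition receptors, 4 were higher and 0 lower, which is 22.2% beside 5.55% of all tested genes, with a median of 0.26. Tlr2, a receptor for bacterial lipoproteins, was at 62.4 and 42.6 CPM in the controls and 208 and 125 CPM with cytokines (log2 fold change 1.67 ± 0.32 (SE), edgeR adjusted p = 0.0414), and Nod2, a sensor of peptidoglycan fragments, was at 1.21 and 2.12 CPM in the controls and 11.4 and 8.75 CPM with cytokines (log2 fold change 2.59 ± 0.33 (SE), edgeR adjusted p = 0.0165). Nlrp3, the inflammasome sensor, had 1 count over both controls and 116 over both treated libraries, a ratio of 120.6 (95% counting interval 21.2 to 4805). The block called 7 higher and 1 lower, and the count of 4 was 0 without dKO control replicate 1, 1 without dKO cytokines replicate 1 and 2 without any 1 WT library. Of 12 checkpoint and costimulatory ligands 2 were higher and 0 lower, which is 16.7% beside 5.55% of all tested genes, with a median of 0.49. Icosl, a ligand for T cells, was at 8.58 and 8.07 CPM in the controls and 129 and 76.2 CPM with cytokines and rose (log2 fold change 3.63 ± 0.41 (SE), edgeR adjusted p = 0.0132), and Cd40, a receptor for T cell help, rose by 2.26 (edgeR adjusted p = 0.0493). With the block 4 of the 12 were higher and 1 lower, and the count of 2 was 0 or 1 with any 1 library left out. Tlr2 passed the threshold only without dKO cytokines replicate 2 (edgeR adjusted p up to 0.129). Nod2 missed the threshold without dKO control replicate 1 or dKO cytokines replicate 1 (edgeR adjusted p up to 0.0696). Icosl missed the threshold without dKO control replicate 1 or 2 (edgeR adjusted p up to 0.0858). Cd40 missed the threshold whichever library was left out (edgeR adjusted p up to 0.181).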
